A study of Mus musculus with 24 samples.

Results

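The mouse Hox genes are the 39 genes of the HoxA, HoxB, HoxC and HoxD clusters, and they were taken here by symbol alone: every symbol that reads Hox, then a letter from a to d, then digits and nothing more. All 39 are listed among the 23879 genes of the 24 expression files, 11 in HoxA, 10 in HoxB, 9 in HoxC and 9 in HoxD. The antisense transcripts Hoxa11os and Hoxd3os1 carry extra letters and are not members. The study sequenced poly(A) RNA of endothelial cells and stroma from the bone marrow of C57BL/6J mice, in 8 groups of 3 libraries. For each cell type there is a first culture (called culture below), a second culture kept without blood cells (called alone), the same kind of culture grown together with hematopoietic stem and progenitor cells (called with HSPC; the labels also call these cells hematopoietic stem cells), and cells taken from the animal (called in vivo). The 18 cultured libraries carry Akt1 in their titles, a kinase of growth factor signaling, and the 6 in vivo libraries do not; the labels do not say what was done with Akt1, so culture and Akt1 cannot be told apart in any comparison of in vivo with culture. Neither the age of the animals, nor pooling, nor a sort of the cells before RNA extraction is given in the labels. Whether replicates were grown or taken separately is not stated either, so p-values below measure library-to-library spread, which could be technical.

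Hox genes code for homeodomain transcription factors that give cells their position along the body axis and along the limbs. Within a cluster they lie in the order of their paralog numbers, low numbers being used toward the head and the base of a limb and high numbers toward the tail and the tip of a limb. Adult mesenchymal cells, such as fibroblasts and bone marrow stroma, are known to keep a Hox pattern that reflects where in the body they came from, endothelial cells use HoxA, HoxB and HoxD genes during vessel growth, and blood stem cells use HoxA and HoxB genes such as Hoxa9 and Hoxb4.

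Levels are in FPKM, fragments scaled to the length of the transcript and to the mapped fragments of the library, which allows levels of different genes to be set side by side. The summed FPKM of a library ran from 1421447 to 1808592, and 12447 to 13961 genes reached 1 FPKM; the read depth is unknown, since the files hold no counts. Of the 936 Hox values, 371 are listed at exactly 0 and 9 lie between 0 and 1 FPKM, so a 0 may stand for a low level that the files do not list. All 77 genes named Polr2, Mrpl or Atp5 (RNA polymerase II, mitochondrial ribosome and ATP synthase subunits, which every cell uses; chosen after the values were seen) were above 0 in every library. Markers of both cell types were checked: the summed level of 20 endothelial identity genes was 14940 to 32860 FPKM in the 12 endothelial libraries and 73.4 to 471.3 FPKM in the 12 stromal ones. The 20 mesenchymal matrix genes summed to 6885 to 19730 FPKM in endothelium and to 56550 to 129900 in 11 stromal libraries. In cultured stroma replicate 1 they summed to 15040, inside the endothelial range, although 19 of the 20 reached 1 FPKM there. As a mean of log2(FPKM + 1) over the 20 genes, that library was at 7.15. The endothelial libraries were at 2.83 to 4.72 and the other stromal ones at 9.37 to 10.01.

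The cultured libraries of the first series stand apart from each other. Over the 39 Hox genes, 2 libraries of one group differed by a mean of 0.06 to 0.23 on the log2(FPKM + 1) scale in the 6 other groups, by 0.46 to 0.86 in cultured endothelium, and by 0.42 (replicates 2 and 3), 1.36 and 1.57 (replicate 1 against each) in cultured stroma. In its Hox levels, cultured stroma replicate 1 was nearer to stroma alone (mean difference 0.65) than to its own group (1.43), and cultured endothelium replicate 1 nearer to endothelium alone (0.33) than to its own group (0.73). Cultured endothelium replicates 2 and 3 and cultured stroma replicate 3 carry Xist at 1006 to 1250 FPKM, with the Y-linked Ddx3y, Eif2s3y, Kdm5d and Uty at 0. The other 21 libraries have Xist at 2.35 FPKM or lower and carry Y-linked transcripts. All in vivo libraries are among the 21, so comparisons of in vivo with first culture also differ in Xist and Y-linked transcripts. Endothelium against stroma within first culture is not balanced in them either, with endothelium replicates 2 and 3 but only stroma replicate 3 carrying Xist. Counts that rest on the first cultures are also given without single libraries.

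Hoxb8 and Hoxd8 were higher in endothelium, and Hoxa10 and Hoxa11 were higher in stroma. Hoxd10, a paralog of Hoxa10, was listed above 0 only in endothelium in culture, alone and with HSPC. Promoter windows are shown for these genes, whose levels carry the main contrasts of the study. Each runs 5′ to 3′ from 250 bases before to 50 bases after a start in RefSeq's table for GRCm38.p6, a later build than the mm9 named in the submitters' processing notes, so these positions are not those of the expression files. Capitals mark matches, on either strand, to TGATNNAT (a composite site of Pbx and Hox proteins), TGACAG (a Meis site), AGGTCA (a nuclear receptor site, used by retinoic acid receptors among others), TATAAA (the TATA box) or CCAAT (the CCAAT box).
Hoxb8, chr11:96281655-96281954, + strand: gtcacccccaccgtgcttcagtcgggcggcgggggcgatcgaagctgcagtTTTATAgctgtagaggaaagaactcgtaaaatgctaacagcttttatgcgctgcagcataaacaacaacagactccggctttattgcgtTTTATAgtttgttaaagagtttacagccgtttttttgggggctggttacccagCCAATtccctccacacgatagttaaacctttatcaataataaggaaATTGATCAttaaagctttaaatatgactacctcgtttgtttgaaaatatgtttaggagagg
Hoxd8, chr2:74704365-74704664, + strand: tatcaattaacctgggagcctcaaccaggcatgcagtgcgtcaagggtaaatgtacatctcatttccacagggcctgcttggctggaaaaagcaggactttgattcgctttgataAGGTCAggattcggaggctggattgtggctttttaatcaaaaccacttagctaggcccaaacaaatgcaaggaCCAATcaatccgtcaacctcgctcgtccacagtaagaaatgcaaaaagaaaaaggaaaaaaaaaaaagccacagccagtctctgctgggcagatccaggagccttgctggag
Hoxd10, chr2:74691641-74691940, + strand: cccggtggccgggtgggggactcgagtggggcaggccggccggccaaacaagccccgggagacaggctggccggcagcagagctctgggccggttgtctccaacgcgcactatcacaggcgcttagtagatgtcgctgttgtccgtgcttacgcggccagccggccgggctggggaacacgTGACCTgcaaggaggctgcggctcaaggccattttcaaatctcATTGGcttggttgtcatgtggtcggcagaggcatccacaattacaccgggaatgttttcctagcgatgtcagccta
Hoxa10, chr6:52234890-52235189, - strand: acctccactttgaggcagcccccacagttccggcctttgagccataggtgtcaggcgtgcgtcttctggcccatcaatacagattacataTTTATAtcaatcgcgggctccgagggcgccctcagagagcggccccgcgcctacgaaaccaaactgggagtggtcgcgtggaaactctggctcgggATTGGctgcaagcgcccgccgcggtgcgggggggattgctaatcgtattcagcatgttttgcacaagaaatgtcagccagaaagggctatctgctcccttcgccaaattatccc
Hoxa10, other start, chr6:52240805-52241104, - strand: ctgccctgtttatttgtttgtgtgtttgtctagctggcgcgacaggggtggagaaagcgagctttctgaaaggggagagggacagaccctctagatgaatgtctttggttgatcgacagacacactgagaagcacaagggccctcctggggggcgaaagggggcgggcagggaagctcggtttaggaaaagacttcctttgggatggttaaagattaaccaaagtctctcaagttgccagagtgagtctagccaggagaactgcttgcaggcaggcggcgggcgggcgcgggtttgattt
Hoxa11, chr6:52245761-52246060, - strand: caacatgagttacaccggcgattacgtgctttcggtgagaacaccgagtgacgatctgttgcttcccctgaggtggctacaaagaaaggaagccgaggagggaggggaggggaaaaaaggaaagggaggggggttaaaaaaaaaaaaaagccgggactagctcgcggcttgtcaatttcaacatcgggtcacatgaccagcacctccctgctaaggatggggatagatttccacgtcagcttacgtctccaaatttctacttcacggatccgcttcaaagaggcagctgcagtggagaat

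Of the 39 Hox genes, 22 matched the promoter table, with 24 windows; Hoxb7, Hoxb9, Hoxc6 and Hoxc10 had no entry. The Hoxb8 window holds the composite site and the CCAAT letters once each and the TATA box letters at 2 places. Its Hoxd8 paralog and the Hoxd10 window each hold the nuclear receptor and CCAAT letters once. The first Hoxa10 window holds the TATA box and CCAAT letters once each, while the Hoxa11 window and the second Hoxa10 window hold none of the 5. Of the 24 Hox windows, 29.2% hold AGGTCA against 16.3% of all 32851 promoter windows of the same length, 16.7% hold TGATNNAT against 8.85%, 8.33% hold TGACAG against 19.2%, 16.7% hold TATAAA against 13.6%, and 62.5% hold CCAAT against 37.4%. The median number of CG dinucleotides was 14.5 in the Hox windows, from 4 to 45, and 7 in all windows. Of the genes shown, Hoxd8 has 6 CG dinucleotides, Hoxb8 has 13, Hoxd10 has 22, Hoxa11 has 15, and the Hoxa10 windows have 21 and 12.

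Endothelium and stroma used different clusters. At a mean of at least 1 FPKM, 21 to 23 Hox genes were present in each of the 4 endothelial groups. Stroma had 32 such genes in first culture, 21 alone, 21 together with HSPC and 27 in vivo. Hoxb1, a hindbrain gene, and Hoxd12, a distal limb gene, were listed at 0 in all 24 libraries. By sums of FPKM, HoxB held 59.3% ± 2.4 (SD, n = 3) of the Hox total in endothelium in vivo, HoxA 30.1% ± 2.2 and HoxD 10.6% ± 1.6. In stroma in vivo HoxA held 59.4% ± 1.4, HoxC 27.3% ± 1.4, HoxB 9.92% ± 0.48 and HoxD 3.35% ± 0.36.

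**Figure D1:**
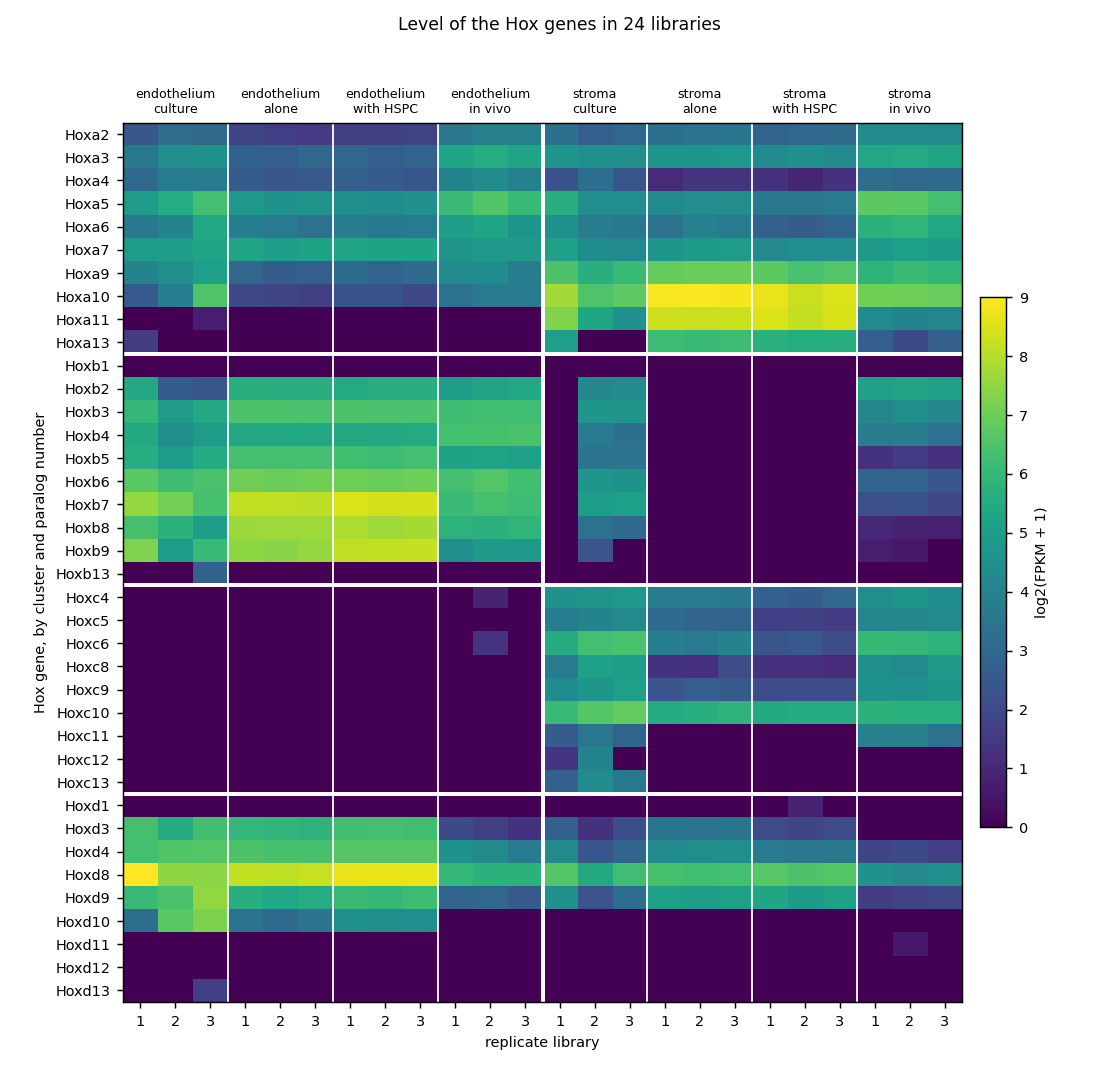
Level of Hox genes, in rows by cluster and paralog number, in the 24 libraries, in columns by group, as log2(FPKM + 1) on a color scale from 0 to 9. HoxC is at or near 0 in all 12 endothelial columns, and HoxB is at 0 in the 6 columns of stroma alone and with HSPC and in cultured stroma replicate 1.

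HoxC transcripts were stromal. All 9 HoxC genes were listed at 0 in the 9 cultured endothelial libraries. In vivo endothelium showed Hoxc4 at 0.85 and Hoxc6 at 1.64 FPKM in replicate 2, and 0 for every HoxC gene in the other 2 replicates. Hoxc10, which patterns the lumbar spine and hindlimb, was at 67.0, 97.2 and 114 FPKM in cultured stroma, 45.3, 48.6 and 56.6 alone, 43.7, 45.6 and 45.1 with HSPC, and 53.6, 52.4 and 51.7 in vivo. All 12 stromal values of Hoxc10 lay far above the 12 endothelial zeros.

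The level of most HoxC genes moved between the stromal groups while Hoxc10 had the narrowest relative range of group means in the cluster. Hoxc6, a thoracic gene, was at 45.3, 79.1 and 84.2 FPKM in culture, 13.8, 12.4 and 15.8 alone, 4.15, 4.69 and 3.12 with HSPC, and 64.1, 62.6 and 55.9 in vivo. Hoxc8 and Hoxc9, also thoracic, had means of 25.9 and 26.2 FPKM in culture, 2.02 and 4.82 alone, 1.31 and 3.22 with HSPC, and 22.6 and 23.8 in vivo. Hoxc6, Hoxc8 and Hoxc9 were thus high in first culture and in vivo and low in the second culture, and for Hoxc6 no library of the second culture reached a library of first culture or in vivo. Hoxc11, a hindlimb gene, was listed above 0 in cultured stroma (5.20, 10.6 and 6.53 FPKM) and in vivo (14.2, 14.1 and 9.30) and at 0 in the other 6 stromal libraries. Hoxc13, known for its part in hair and nail growth, was above 0 in the 3 libraries of cultured stroma and in no other library (5.77, 19.3 and 11.5 FPKM), and Hoxc12 in 2 of those 3 (1.58 and 15.8).

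HoxB transcripts were endothelial, and the stromal libraries divided over them. Hoxb2 to Hoxb9 were above 0 in all 12 endothelial libraries. Hoxb7, a thoracic gene and in endothelium alone the highest of the cluster, was at 189, 137 and 82.2 FPKM in cultured endothelium, 289, 279 and 276 alone, 361, 330 and 333 with HSPC, and 70.1, 81.7 and 73.1 in vivo. Hoxb8 was at 83.2, 53.9 and 31.7 FPKM in culture, 198.0, 202 and 203 alone, 235, 203 and 219.9 with HSPC, and 54.9, 51.4 and 58.9 in vivo. Both genes were higher in the second culture than in first culture or in vivo, with no overlap.

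In stroma every HoxB gene was at 0 in the 6 libraries alone and with HSPC and in cultured replicate 1, but not in cultured replicates 2 and 3 or in vivo. Hoxb7 was at 31.6 and 32.7 FPKM in cultured stroma replicates 2 and 3, and 3.63, 3.65 and 2.89 FPKM in vivo. Hoxb2, a gene of the hindbrain and the first of the cluster that is expressed here, was at 0, 16.7 and 19.5 FPKM in cultured stroma and 34.2, 37.1 and 34.9 in vivo, next to 32.2, 36.8 and 40.3 in endothelium in vivo. The summed endothelial identity genes followed this division only in part. They were at 73.4 to 78.2 FPKM alone and 88.7 to 134.8 with HSPC, where HoxB was at 0, and at 144.8 and 275.1 in cultured replicates 2 and 3 and 145.6 to 173.4 in vivo, where HoxB was listed. The highest stromal sum was that of cultured replicate 1, at 471.3 FPKM with no HoxB. As a mean of log2(FPKM + 1) over the 20 genes, stroma with HSPC (1.21 to 1.63) overlapped stroma in vivo (1.52 to 1.76). In endothelium in vivo the sum of these genes was 30420 to 32860 FPKM. The 15 pan-hematopoietic genes summed to 57.1, 47.8 and 28.1 FPKM in the 3 cultured stromal libraries, and the 13 granulocyte genes to 0, 54.2 and 46.4. In stroma in vivo the pan-hematopoietic genes summed to 192 to 260 FPKM and the 11 erythroid genes found to 39700 to 48620. The part of endothelial or blood cell RNA in the stromal HoxB values was not tested. Hoxb13, a tail and prostate gene, was above 0 in 1 library, cultured endothelium replicate 3, at 5.94 FPKM.

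In vivo the cell types met at Hoxb2 and parted toward higher numbers. Endothelial means were 36.4 FPKM for Hoxb2, 74.2 for Hoxb3, 82.1 for Hoxb4, 35.4 for Hoxb5, 84.3 for Hoxb6, 74.99 for Hoxb7, 55.1 for Hoxb8 and 26.1 for Hoxb9. Stromal means fell from 35.4 for Hoxb2 to 17.9 for Hoxb3, 11.9 for Hoxb4 and 1.64 for Hoxb5, stood at 5.65 for Hoxb6 and 3.39 for Hoxb7, and were 0.877 for Hoxb8 and 0.363 for Hoxb9. The first 3 stromal means do not overlap in their libraries and neither do the endothelial and stromal values from Hoxb3 on, whereas the Hoxb2 values do. In RefSeq the span of Hoxb3 overlaps that of Hoxb4, so fragments in the shared part could have been given to either gene.

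**Figure D2:**
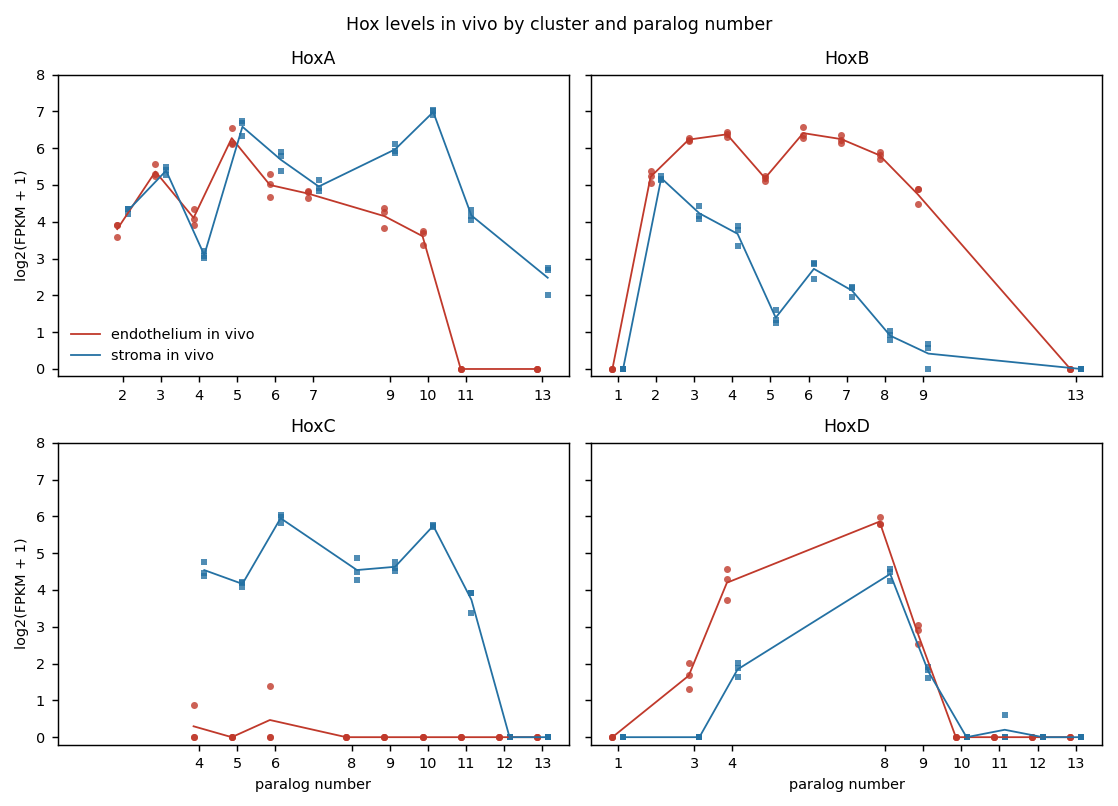
Levels in vivo, as log2(FPKM + 1), against paralog number in each cluster, for endothelium (red circles) and stroma (blue squares); points are the 3 libraries of each group and lines join their means. The libraries of the cell types overlap at Hoxa3, Hoxa5, Hoxa7 and Hoxb2. They do not overlap at Hoxa2, Hoxa4, Hoxa6, Hoxa9 to Hoxa13, Hoxb3 to Hoxb9, Hoxc4 to Hoxc11, Hoxd3, Hoxd4, Hoxd8 and Hoxd9.

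HoxD was used by both cell types at lower numbers, more in endothelium. Hoxd8, with the highest mean over all 24 libraries of any Hox gene (164 FPKM), was at 501, 179 and 173 FPKM in cultured endothelium, 287, 283 and 303 alone, 419, 419 and 408 with HSPC, and 62.7, 54.1 and 54.5 in vivo. In stroma it was at 97.8, 43.6 and 75.3 FPKM in culture, 81.4, 75.8 and 78.3 alone, 99.5, 87.8 and 97.1 with HSPC, and 23.0, 17.8 and 21.4 in vivo. In every one of the 4 conditions the endothelial libraries were all above the stromal ones, and in both cell types the in vivo libraries were the lowest.

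Hoxd10, which shapes the lumbar spinal cord and the hindlimb, was above 0 only in cultured endothelial libraries. It was at 8.48, 104 and 147 FPKM in cultured endothelium, 9.84, 7.50 and 9.95 alone and 21.9, 21.5 and 20.5 with HSPC, and at 0 in endothelium in vivo and in all 12 stromal libraries. The 2 high cultured libraries are those that carry Xist. Hoxd3 and Hoxd4, at the low end of the cluster, had means of 67.5 and 89.97 FPKM in cultured endothelium and 2.25 and 17.9 in vivo, and 3.55 and 9.78 in cultured stroma against 0 (all 3 libraries) and 2.60 in vivo. Hoxd9 followed the same course, with 111.5 FPKM in cultured endothelium and 6.17 in vivo, and 11.6 in cultured stroma and 2.45 in vivo. Hoxd1, Hoxd11 and Hoxd13 were each above 0 in a single library, at 0.82 (stroma with HSPC replicate 2), 0.52 (stroma in vivo replicate 2) and 2.17 FPKM (cultured endothelium replicate 3). The RefSeq spans of Hoxd3 and Hoxd4, and of Hoxd10 and Hoxd11, overlap.

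HoxA genes of low number were expressed in both cell types, and those of high number were higher in stroma. Hoxa7, a thoracic gene, had group means from 19.5 to 36.4 FPKM over all 8 groups, the flattest course of the expressed HoxA genes. Hoxa2 and Hoxa3, genes of the hindbrain and neck, had means of 13 and 40.4 FPKM in endothelium in vivo and 18.8 and 41.0 in stroma in vivo. In the second culture without blood cells they were lower in endothelium, at 2.23 and 6.07 FPKM, than in stroma, at 9.54 and 25.4. Hoxa3 in endothelium was at 11.5, 20.2 and 22.9 FPKM in culture, 5.89, 5.52 and 6.80 alone, and 38.1, 46.1 and 36.9 in vivo, 3 levels that do not overlap. Hoxa5, a gene of the neck and lung, was at 70.0, 92.9 and 68.2 FPKM in endothelium in vivo and 105, 102 and 79.2 in stroma in vivo, which overlap. The RefSeq span of Hoxa3 overlaps those of Hoxa4, Hoxa5 and Hoxa6, so fragments of these genes could have been exchanged.

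Hoxa9, a lumbar gene also used by blood stem cells, was at 57.2, 68.4 and 59.5 FPKM in stroma in vivo and 18.3, 19.6 and 13.2 in endothelium in vivo. Alone it was at 116, 124 and 126 FPKM in stroma and 6.90, 5.35 and 5.62 in endothelium. The stromal libraries were all above the endothelial ones in both conditions. Hoxa10, known for its part in the hindlimb, the uterus and osteoblast differentiation, was at 215, 90.01 and 109 FPKM in cultured stroma, 482, 487 and 471 alone, 415, 309.9 and 371 with HSPC, and 130.3, 128 and 118 in vivo. In endothelium it was at 4.86, 13.6 and 90.8 FPKM in culture, 2.88, 2.65 and 2.28 alone, 3.84, 3.76 and 2.78 with HSPC, and 9.36, 12.5 and 11.99 in vivo. The stromal libraries were higher throughout except that cultured endothelium replicate 3 exceeded cultured stroma replicate 2.

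Hoxa11, which shapes the forearm and lower leg, was at 157, 38.0 and 22.3 FPKM in cultured stroma, 315, 312 and 313 alone, 365, 285 and 351 with HSPC, and 18.9, 15.6 and 16.7 in vivo. Endothelium listed it above 0 in 1 of 12 libraries, at 0.59 FPKM in cultured replicate 3. Hoxa13, the gene of the hand and foot plates, was at 33.2, 0 and 0 FPKM in cultured stroma, 73.0, 68.4 and 71.0 alone, 52.7, 47.1 and 49.8 with HSPC, and 5.44, 3.03 and 5.68 in vivo, and in endothelium at 2.05 FPKM in cultured replicate 1 and 0 elsewhere. For Hoxa10, Hoxa11 and Hoxa13 the cultured stroma replicate 1 was the highest of its group, on the side of stroma alone. Hoxa11os, antisense to Hoxa11, followed Hoxa11 at 103, 16.3 and 8.38 FPKM in cultured stroma, 174 to 177 alone, 164 to 199 with HSPC and 6.52 to 10.8 in vivo; counting by strand is not given in the labels, so reads of the pair cannot be told apart.

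By paralog number, genes 9 to 13 held 81.5% ± 0.4 (SD, n = 3; range 81.1% to 81.9%) of the Hox total in stroma alone and 82.8% (81.1% to 84.2%) with HSPC, and 38.8% (37.9% to 40.0%) in vivo. In endothelium they held 14.8% (14.2% to 15.6%) alone, 19.5% (18.9% to 19.9%) with HSPC and 7.64% (7.24% to 7.97%) in vivo. Genes 4 to 8 held 70.6% (69.7% to 71.4%) in endothelium in vivo and 45.6% (44.3% to 46.5%) in stroma in vivo. Thus the share of the high numbers was larger in stroma, and within each cell type larger in the second culture than in vivo, without overlap. In first culture the share of genes 9 to 13 was 25.8% in endothelium, spread from 15.7% to 37.9% over the 3 libraries, and 50.7% in stroma, from 44.6% to 62.4%.

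**Figure D3:**
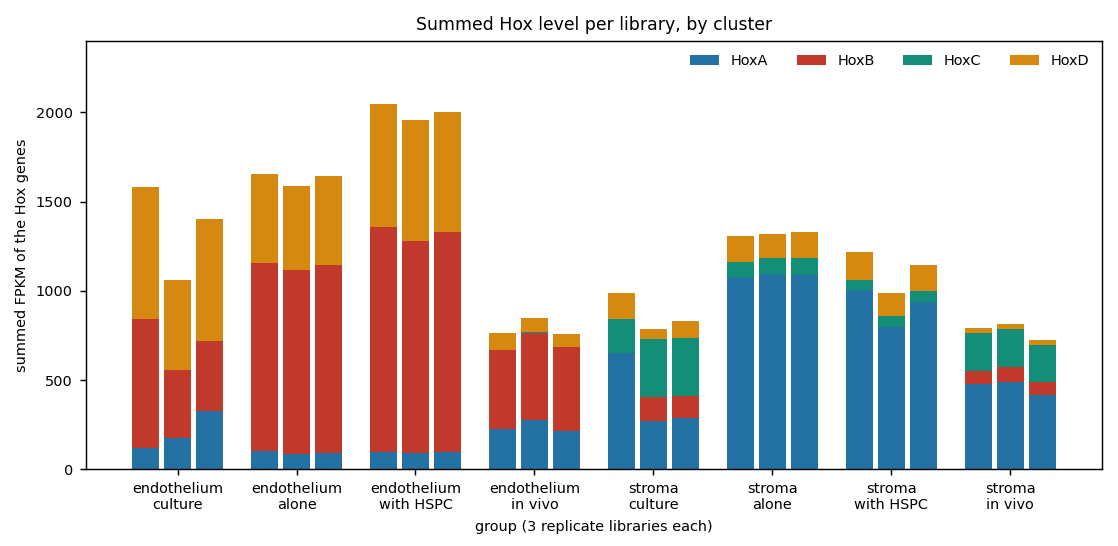
Summed FPKM of the Hox genes in each of the 24 libraries, stacked by cluster, with 3 bars for each group. HoxB and HoxD fill most of each endothelial bar, and HoxA most of each bar of stroma alone and with HSPC; the make-up of the 3 bars of cultured stroma, and of the 3 of cultured endothelium, differs between libraries.

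The differences were tested with limma's moderated test on log2(FPKM + 1) over all genes that reached 1 FPKM in at least 3 of the 12 libraries of a fit, with Benjamini-Hochberg adjustment over those genes, and a gene was counted as called at an adjusted p under 0.05. The fit of culture and in vivo held 14904 genes, 32 of them Hox genes, and the fit of the second cultures 14017 genes, 30 of them Hox genes. The other 7 and 9 Hox genes were too low for the filter. For comparisons of 2 groups, log2 differences are given only where both group means are above 0, though single libraries may be at 0. For differences between the cell types' changes, a cell type at 0 is named beside the value. A gene that passes the filter through one group alone is bound to differ, so the counts are set beside the share of all tested genes called in the same comparison.

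In vivo, endothelium exceeded stroma in 10 of the 32 Hox genes and was below it in 10, while 25% of all tested genes were called higher and 24.2% lower. The 10 higher genes were Hoxa4, Hoxb4 to Hoxb9, Hoxd3, Hoxd4 and Hoxd8. The 10 lower genes were Hoxa9, Hoxa10, Hoxa11, Hoxc4, Hoxc5, Hoxc6, Hoxc8, Hoxc9, Hoxc10 and Hoxc11. Hoxb8 differed by 4.90 ± 0.73 (SE) on the log2 scale (adjusted p = 0.00027), Hoxb9 by 4.33 ± 0.67 (adjusted p = 0.000338) and Hoxb7 by 4.12 ± 1.08 (adjusted p = 0.00926). Stroma in vivo had Hoxb9 at 0.60, 0.49 and 0 FPKM. In the other direction Hoxa10 differed by -3.37 ± 0.78 (adjusted p = 0.00439) and Hoxa9 by -1.81 ± 0.28 (adjusted p = 0.000365). Hoxa2, Hoxa3, Hoxa5, Hoxa6 and Hoxa7 were not called, with log2 differences between -0.69 and -0.02, and neither was Hoxa13 (adjusted p = 0.0949; all endothelial libraries in vivo at 0). Hoxb2 differed by 0.03 ± 1.09 (adjusted p = 0.998) and Hoxb3 by 2.00 ± 1.01 (adjusted p = 0.127). The SE also takes in the spread of cultured stroma, with 1 library at 0 for Hoxb3 and 2 for Hoxa13. Hoxd9 was not called either (adjusted p = 0.121). In vivo the libraries of the cell types did not overlap at Hoxb3, Hoxa13, Hoxa2, Hoxa6 or Hoxd9, although these were not called. The median fitted difference was 3.74 for the 8 tested HoxB, 1.42 for the 5 HoxD and -0.51 for the 11 HoxA genes, with -0.11 over all 32 and 0.03 over all genes.

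In first culture, 12 of the 32 were higher in endothelium, where 20.1% of all genes were, and 11 lower, where 18.6% were. The higher genes were Hoxa4, Hoxb4 to Hoxb9 and the 5 tested HoxD genes, and the lower ones Hoxa9, Hoxa10, Hoxa11 and the 8 tested HoxC genes. Hoxb9 differed by 5.33 ± 0.67 (adjusted p = 0.000151), Hoxd3 by 3.99 ± 0.36 (adjusted p = 1.4e-05) and Hoxa10 by -2.70 ± 0.78 (adjusted p = 0.0192). Cultured stroma had Hoxb9 at 0, 3.92 and 0 FPKM. When the fit held only the 6 cultured libraries, 15 Hox genes were called, 5 higher and 10 lower. Leaving out 1 library at a time, cultured stroma replicate 1 with no HoxB among them, gave 19 to 23 called genes.

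In the second cultures the spread between libraries was small and most genes of any kind were called. Alone, 16 of 30 Hox genes were higher in endothelium (42.0% of all genes) and 13 lower (41.3%). Hoxa10 differed by -7.07 ± 0.11, Hoxa9 by -4.15 ± 0.11 (adjusted p = 6.3e-12), Hoxd3 by 2.43 ± 0.06 (adjusted p = 4.8e-12) and Hoxd8 by 1.88 ± 0.05 (adjusted p = 5.2e-12); Hoxb2 to Hoxb9 were called against a stroma at 0, and Hoxa6 was not called. With HSPC, 17 of 30 were higher (46.6%) and 13 lower (38.6%). Hoxa10 then differed by -6.36 ± 0.11, Hoxd3 by 4.26 ± 0.06 and Hoxa4, the HoxA gene called higher in endothelium in all 4 conditions, by 1.42 ± 0.14 (adjusted p = 1.1e-06).

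The Hox genes called lower in endothelium in vivo than in culture were HoxD genes. Of 32 Hox genes 2 were higher in vivo (23.6% of all genes) and 5 lower (29.8%), and the 5 were the tested HoxD genes. Hoxd3 fell by 4.39 ± 0.36 on the log2 scale from culture to in vivo (adjusted p = 5.7e-06), Hoxd9 by 3.84 ± 0.52 (adjusted p = 0.000162), Hoxd4 by 2.31 ± 0.41 (adjusted p = 0.000968) and Hoxd8 by 2.11 ± 0.39 (adjusted p = 0.00124), and Hoxd10 fell to 0. Hoxa3 rose by 1.16 ± 0.22 (adjusted p = 0.00157) and Hoxa2 by 0.87 ± 0.24 (adjusted p = 0.0111). No HoxB gene was called in limma's fit, and none of the 8 had an unadjusted p under 0.05. The SE, 0.67 to 1.09, also takes in the spread of cultured stroma, where replicate 1 was at 0 for every HoxB gene. Hoxb2 was at 41.8, 5 and 4.15 FPKM over the 3 cultured libraries, which spans its in vivo values. Hoxb5, Hoxb6 and Hoxb8 overlapped too. Hoxb3 lay higher in vivo without overlap (72.45 to 76.28 against 29.57 to 62.36 FPKM), as did Hoxb4 (78.66 to 84.98 against 21.42 to 42.76). Hoxb7 lay lower (70.12 to 81.72 against 82.15 to 189.33), as did Hoxb9 (21.34 to 28.5 against 29.73 to 151.59), also without overlap. Without cultured stroma replicate 1, a library of the other cell type in the same fit, 11 Hox genes were called, 5 higher and 6 lower. Blood and mesenchymal markers were also higher in endothelium in vivo: all 11 erythroid genes tested, with sums of 1344 to 1979 FPKM against 4.83 to 63.4 in culture, 12 of 15 pan-hematopoietic, 8 of 13 granulocyte and 10 of 20 mesenchymal matrix genes, with 3 of the 20 lower. Their part in the Hox differences was not tested.

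In stroma 5 of 32 were higher in vivo than in culture (24% of all genes) and 7 lower (31.4%). Hoxa5 rose by 1.76 ± 0.38 (adjusted p = 0.00295), Hoxa6 by 1.70 ± 0.41 (adjusted p = 0.00522), Hoxa2 by 1.29 ± 0.24 (adjusted p = 0.0012), Hoxa3 by 0.84 ± 0.22 (adjusted p = 0.0089) and Hoxc11 by 0.71 ± 0.24 (adjusted p = 0.0281). Hoxd8 fell by 1.69 ± 0.39 (adjusted p = 0.00454), Hoxd9 by 1.59 ± 0.52 (adjusted p = 0.0239), Hoxa11 by 1.54 ± 0.55 (adjusted p = 0.0366), Hoxd4 by 1.36 ± 0.41 (adjusted p = 0.017) and Hoxc10 by 0.77 ± 0.20 (adjusted p = 0.00702), and Hoxc13 and Hoxd3 fell to 0. Over all genes the median difference in this comparison was -0.15, and 0.05 after trimmed-mean scaling, under which 6 Hox genes were higher and 5 lower. Without cultured stroma replicate 1, 16 were called, 6 higher and 10 lower, and without replicate 3, 11, 5 higher and 6 lower. Without a single library of stroma in vivo, 9 or 10 were called. Hoxd9 lost its call without cultured stroma replicate 1 and without replicate 1 or 2 of stroma in vivo, Hoxa11 without any 1 library of endothelium or stroma in vivo, and Hoxd4 without stroma in vivo replicate 3. Trimmed-mean scaling moved the calls of all genes from 43.3% to 56.5% higher. Stroma in vivo also carried the blood transcripts given above. Of 13 osteoblast genes, 11 were called higher in vivo (24% of all genes) and 0 lower (31.4%), with a median log2 difference of 5.12. Their summed level was 80320 to 112500 FPKM in vivo, against 17590 to 95090 in culture. All 13 reached 1 FPKM in each library in vivo, and 6 to 11 in culture. The part of blood and osteoblast transcripts in these Hox differences was not tested.

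The change from culture to in vivo differed between the cell types for 4 of 32 Hox genes, against 33.5% of all genes; 1 was called higher (16.4% of all genes) and 3 lower (17.1%). Hoxd9 fell by a further 2.25 ± 0.73 in endothelium (adjusted p = 0.0372). Hoxd10 and Hoxc13 are at 0 in one cell type throughout, so their tests repeat the change of the other cell type. Hoxd3 differed by -2.32 ± 0.51 (adjusted p = 0.00553), but stroma in vivo is at 0 for it and its difference took the other sign, 0.13, with a pseudocount of 0.1. The count rested on single libraries: it was 14 without cultured stroma replicate 1, and 2 without cultured stroma replicate 3 or without cultured endothelium replicate 3.

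With HSPC, the 5 tested HoxD genes rose in endothelium, and 8 HoxA, 4 HoxC and 2 HoxD genes fell in stroma. In endothelium 8 of 30 were higher with HSPC than alone (28.3% of all genes) and 1 lower (20.3%). Hoxd10 rose by 1.15 ± 0.10 (adjusted p = 2.6e-06), Hoxb9 by 0.69 ± 0.06 (adjusted p = 2e-06), Hoxd9 by 0.58 ± 0.10 (adjusted p = 0.000601), Hoxd8 by 0.51 ± 0.05 (adjusted p = 5.6e-06) and Hoxd3 by 0.38 ± 0.06 (adjusted p = 0.000405). Hoxa10 (0.30), Hoxb7 (0.28) and Hoxd4 (0.20) also rose, and Hoxa5 fell by 0.23 ± 0.07 (adjusted p = 0.0156). Hoxa10 lay at the threshold (adjusted p = 0.0484) and lost its call under 12 alternatives. Of all genes called in this comparison 58.1% were higher, 49.9% after trimmed-mean scaling and 45.4% after quantile normalization, under each of which 7 Hox genes were higher and 1 lower. The 5 tested HoxD genes, Hoxb7 and Hoxb9 were thus higher, while Hoxb8 (0.12, adjusted p = 0.119) and Hoxb2 to Hoxb6 (-0.08 to 0.09) were not called. The share of Hox genes called higher was near that of all genes.

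In stroma 1 of 30 was higher with HSPC (25.6% of all genes) and 14 lower (35.4%). Hoxc6 fell by 1.60 ± 0.12 (adjusted p = 6.4e-07), Hoxd3 fell by 1.45 ± 0.06 (adjusted p = 6.5e-09), Hoxc5 by 1.34 ± 0.09 (adjusted p = 2.3e-07), Hoxc4 by 0.89 ± 0.11 (adjusted p = 2.2e-05), Hoxa6 by 0.88 ± 0.16 (adjusted p = 0.000571), Hoxd4 by 0.82 ± 0.05 (adjusted p = 1.4e-07) and Hoxa5 by 0.73 ± 0.07 (adjusted p = 3.5e-06). Hoxd8 was the gene that rose, by 0.27 ± 0.05 (adjusted p = 0.000569). Hoxa11 (0.08), Hoxc10 (-0.15) and Hoxd9 (0.03), which are among the genes with high stromal levels, were not called. Hoxa10 fell by 0.40 ± 0.11 (adjusted p = 0.0098) and Hoxa13 by 0.50 ± 0.06 (adjusted p = 4.5e-05).

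**Figure D4:**
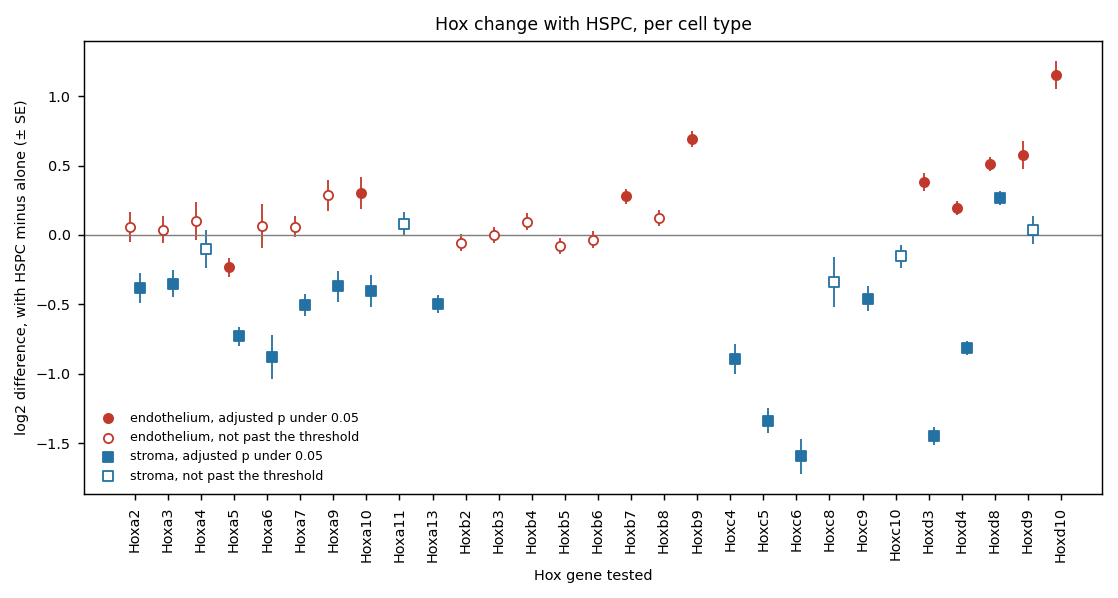
Log2 difference with HSPC minus alone, ± SE, for tested Hox genes, in endothelium (red circles) and stroma (blue squares); filled marks are past an adjusted p of 0.05, and a gene at 0 in all 6 libraries of a cell type has no mark there. The 14 filled stromal marks below 0 lie in HoxA, HoxC and at Hoxd3 and Hoxd4, and the HoxD marks of endothelium are all above 0.

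The response to HSPC differed between the cell types for 19 of 30 Hox genes, all in the direction of endothelium above stroma, against 57.0% of all genes called in either direction, 36% higher and 21.1% lower. The share of Hox genes called was thus near that of all genes called in either direction. The median over all genes in this comparison was 0.11, and after trimmed-mean scaling 0.04, with 17 Hox genes called, and after quantile normalization 16. Hoxd3 differed by 1.83 ± 0.09 (adjusted p = 4.3e-08), Hoxd4 by 1.01 ± 0.07 (adjusted p = 8.6e-07), Hoxa6 by 0.94 ± 0.23 (adjusted p = 0.00421) and Hoxa10 by 0.71 ± 0.16 (adjusted p = 0.00327). For Hoxb7, Hoxb9, Hoxd10, Hoxa13 and the 4 HoxC genes among the 19 one cell type is at 0, so the test is that of the other cell type alone.

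Blood transcripts moved with HSPC as well. The 15 pan-hematopoietic genes summed to 82.1 to 88.3 FPKM in endothelium alone and 223 to 279 with HSPC, and to 2.27 to 3.77 in stroma alone and 39.2 to 52.4 with HSPC. The 13 granulocyte genes summed to 49.6 to 57.4 FPKM in endothelium alone and 1755 to 1979 with HSPC, and to 16.8 to 20.1 in stroma alone and 703 to 917 with HSPC. Ptprc, the leukocyte antigen CD45, was at 0 in the 6 libraries alone, at 2.06, 1.39 and 1.17 FPKM in endothelium with HSPC and at 0.36, 0.47 and 0.33 in stroma with HSPC. HoxB genes were at 0 in all 3 libraries of stroma with HSPC and HoxC genes at 0 in all 3 of endothelium with HSPC. In bulk RNA, fewer cells of a type and less RNA per cell cannot be told apart. The part of blood RNA in the Hox differences was not tested.

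Proteins of the Meis, Pbx and Pknox families bind DNA together with Hox factors, and 7 to 9 of their 9 genes reached 1 FPKM in each library. In vivo, Pbx2 was higher in endothelium by 0.48 ± 0.14 (adjusted p = 0.0182) and Pknox1 by 0.37 ± 0.14 (adjusted p = 0.0455), while Pknox2 differed by -5.26 ± 0.84 (adjusted p = 0.000428), Meis1 by -2.63 ± 0.42 (adjusted p = 0.000427) and Meis3 by -2.21 ± 0.57 (adjusted p = 0.00796). Pknox2 was at 59.4, 46.4 and 49.4 FPKM in stroma in vivo and 0.43, 0 and 0.79 in endothelium in vivo. The remaining 4 of the 9 did not pass. With HSPC, Meis2 rose in endothelium by 0.93 ± 0.08 (adjusted p = 3.1e-06), Meis3 by 0.90 ± 0.13 (adjusted p = 0.000135) and Meis1 by 0.39 ± 0.07 (adjusted p = 0.000682), among 4 higher (28.3% of all genes) and 0 lower (20.3%) of 9. In stroma 1 was higher (25.6%) and 5 lower (35.4%), Pbx3 falling by 0.86 ± 0.06 (adjusted p = 1.7e-07). The median over the 9 was 0.39 in endothelium and -0.21 in stroma, with 0.02 and -0.04 over all genes.

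**Figure D5:**
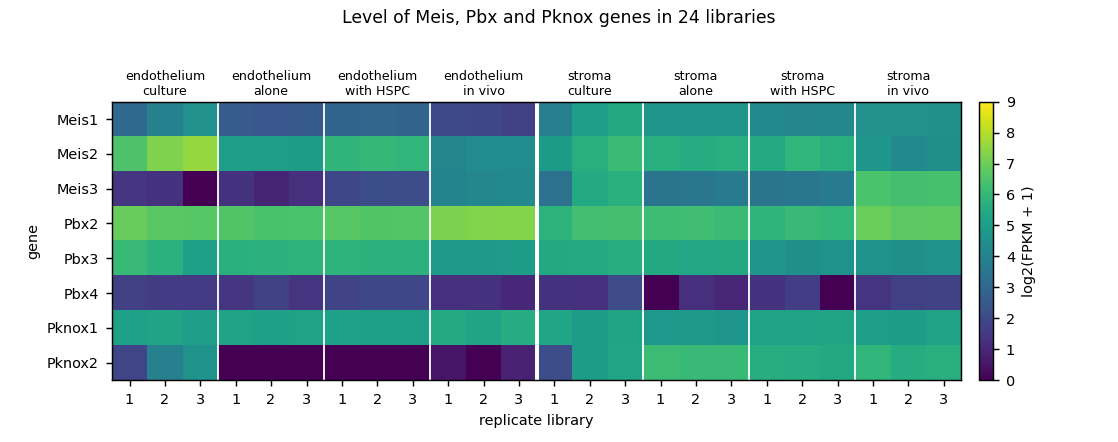
Level of Meis, Pbx and Pknox genes, in rows, in the 24 libraries, in columns by group, as log2(FPKM + 1) on a color scale from 0 to 9. Pknox2 and Meis1 are higher in the stromal than in the endothelial columns of the second cultures and in vivo, and Pbx2 is present in all 24 columns.

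Genes that set limb position and pattern were mostly higher in stroma. Of the 21 tested in vivo, 2 were higher in endothelium (25% of all genes) and 14 lower (24.2%), and the median difference was -2.40. Alone, of 17 tested, 1 was higher (42.0%) and 16 lower (41.3%), and the median difference was -2.94. Prrx1, a limb mesenchyme factor, was at 295, 286 and 276 FPKM in stroma in vivo and 3.39, 3.32 and 3.74 in endothelium. Pitx1 and Tbx4, which mark the hindlimb, had means of 22.4 and 2.83 FPKM in stroma in vivo and 73.2 and 40.2 in stroma alone, and were listed at 0 in endothelium in vivo and alone. Tbx5, the forelimb counterpart, was at 4.19, 3.31 and 1.85 FPKM in stroma in vivo, at 0 in the 6 libraries of stroma alone and with HSPC, and at 0, 3.36 and 0 in cultured stroma. Msx1 went the other way in culture, higher in endothelium by 2.65 ± 0.53 (adjusted p = 0.00298).

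The chromatin regulators that hold Hox clusters on or off, the Trithorax and Polycomb proteins, were at or above 1 FPKM for all 22 genes found in every library. In vivo 7 were higher in endothelium (25% of all genes) and 4 lower (24.2%), and the median difference was 0.25. Alone 9 were higher (42.0%) and 9 lower (41.3%), and the median difference was -0.04. Cbx7, a Polycomb subunit, was the gene of the list with the largest change between culture and in vivo, rising by 4.08 ± 0.38 in endothelium (adjusted p = 1.3e-05) and by 3.66 ± 0.38 in stroma (adjusted p = 2.3e-05), and Ezh2, the Polycomb methyltransferase, fell by 1.92 ± 0.22 in endothelium (adjusted p = 5.8e-05). Over the list 9 rose (23.6% of all genes) and 5 fell (29.8%) in endothelium, and 8 rose (24%) and 6 fell (31.4%) in stroma. Cdx1, Cdx2 and Cdx4, which turn on trunk Hox genes in the embryo, were listed at 0 in all 24 libraries.

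Genes of the retinoic acid pathway, which acts on Hox clusters in the embryo, were called higher in endothelium in vivo for 3 of 18 (25% of all genes) and lower for 4 (24.2%), with a median of -0.01. More were lower than higher in the other conditions: 1 higher and 6 lower of 18 in culture (20.1% and 18.6% of all genes; median -1.36), 2 and 10 of 13 alone (42.0% and 41.3%; median -0.65) and 2 and 10 of 13 with HSPC (46.6% and 38.6%; median -1.33). Aldh1a2, the enzyme that makes retinoic acid in the embryo, was at 237, 154 and 181 FPKM in stroma in vivo. It was at 3.43, 84.1 and 157 in cultured stroma and at 0 in the 6 other stromal libraries. The summed level of the 19 genes of the list did not follow it. The sum was 1104 to 1149 FPKM in stroma in vivo, 5146 to 5375 alone and 2754 to 2863 with HSPC. In cultured stroma the sum was 11160, 1531 and 1126 FPKM. Of the genes next to the clusters, 4 of 13 tested were higher in endothelium in vivo (25% of all genes) and 1 was lower (24.2%). Lnp, beside HoxD, was lower in endothelium in vivo (-1.32 ± 0.15, adjusted p = 4.5e-05), where Hoxd3, Hoxd4 and Hoxd8 were higher, and Snx11, beside HoxB, was higher (1.12 ± 0.20, adjusted p = 0.000943). In stroma alone, where HoxB was at 0, Snx11 was at 39.9, 42.8 and 38.5 FPKM.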

How the data were processed

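Poly(A) RNA extracted with Trizol was sequenced as paired 51-base reads (TruSeq), per the labels. The deposited files give 1 FPKM value per gene and library, which the authors computed; TopHat, Cufflinks and the build mm9 are named, per the submitters' processing notes; versions and counting by strand are not given in the sources used here. No counts are in the files, so depth is unknown and no count model was used. Groups come from the sample titles. Values were taken as log2(FPKM + 1) and tested with limma 3.58.1 (R 4.3.3; empirical Bayes with a trend on mean level) in 2 fits of 12 libraries, after a filter of 1 FPKM in at least 3 libraries, with Benjamini-Hochberg adjustment over all tested genes for each of 10 comparisons. The procedure was tested on simulated data. Full statistics were given for up to 8 called Hox genes per comparison with the largest log2 difference, and for up to 4 genes of another list, plus those needed to describe it. The members, gene lists and tests were chosen with earlier results of these data known. Of 205 list entries 200 were found. All 39 Hox genes matched RefSeq by symbol. Alternatives were another pseudocount, no filter, a filter at 5 FPKM, trimmed-mean and quantile scaling, fits of the compared groups, a replicate block and leaving out each library; 2 further ones, added after seeing the data, left out sets of cultured libraries. One Hox gene and 1 cofactor gene entered every fit, count and sum but their own values are not reported here or drawn.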

Additional observations from a re-analysis of the deposited data

Results flagged for a closer look

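The following Hox genes changed differently in endothelium and stroma by the interaction term of limma's fit (adjusted p under 0.05); values are the endothelial minus the stromal change on the log2(FPKM + 1) scale. From culture to in vivo these were Hoxd9 at -2.25 and Hoxd3 at -2.32, where stroma in vivo is at 0 and the value took the other sign, 0.13, with a pseudocount of 0.1. Also called were Hoxc13 at 3.58 and Hoxd10 at -5.72, where one cell type is at 0 throughout and the value repeats the change of the other. From alone to with HSPC, HoxA members were Hoxa2 at 0.44, Hoxa3 at 0.39, Hoxa5 at 0.50, Hoxa6 at 0.94, Hoxa7 at 0.56, Hoxa9 at 0.66 and Hoxa10 at 0.71, and HoxD members were Hoxd3 at 1.83, Hoxd4 at 1.01, Hoxd8 at 0.25 and Hoxd9 at 0.54. With endothelium at 0 in both conditions, Hoxa13 was at 0.50, Hoxc4 at 0.89, Hoxc5 at 1.34, Hoxc6 at 1.60 and Hoxc9 at 0.46. With stroma at 0 in both conditions, Hoxb7 was at 0.28, Hoxb9 at 0.69 and Hoxd10 at 1.15.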

How the results depend on the processing

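The number of Hox genes called stayed within 1.5 times of its reported value in all 10 comparisons with no filter, a filter at 5 FPKM, trimmed-mean scaling and quantile normalization. The difference between cell types in the change from culture to in vivo, 4 genes, was 2 with a pseudocount of 0.1 and 2 to 14 without single libraries; Hoxd3 in it then took the value 0.13 with that pseudocount. Endothelium against stroma in culture, 23 genes, gave 15 when only the compared groups were fitted. In vivo against culture in endothelium, 7 genes, gave 6 to 11 without single libraries. Of 2 alternatives chosen after seeing the data, leaving out the 3 cultured libraries that carry Xist gave 2 genes for the difference between cell types, and leaving out cultured stroma replicates 2 and 3 gave 10 for it and 11 for endothelium in vivo against culture; the cause was not tested. Each leaves 1 library in a cultured arm, replicate 1 of endothelium or of stroma, which is then assumed to vary like the other groups. Of 36 same-numbered pairs of libraries, 1 correlated above 0.1 in deviations from group means (r from -0.11 to 0.13). For cultured endothelium with cultured stroma, same-numbered pairs had r of 0.099, 0.048 and 0.068, and the other pairs -0.115 to 0.059. Such correlations cannot settle whether the replicate numbers pair the samples. With a replicate block, 10 genes against 9 were called with HSPC in endothelium and 3 against 4 for the first difference above, and the other 8 counts did not move. Depth is unknown, which limits what a value of 0 means.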

Other observations

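Mir196a-1, the gene of a microRNA that lies in the HoxB cluster, was chosen after its values were seen. It was listed at 261, 47.1 and 106 FPKM in cultured endothelium, 217, 142 and 147 alone and 296, 302 and 328 with HSPC, and at 0 in endothelium in vivo and in all 12 stromal libraries. FPKM of so short a gene, from poly(A) RNA, cannot be told apart from fragments of a longer transcript over it. Its mature form mmu-miR-196a-5p is given here from RefSeq to show the seed, bases 2 to 8, in capitals.
mmu-miR-196a-5p: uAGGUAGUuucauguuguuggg

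Hotair, a noncoding RNA of the HoxC cluster also chosen after its values were seen, was at 1.35, 1.8 and 1.44 FPKM in cultured stroma and 1.04, 1.71 and 1.95 in stroma in vivo, and at 0 in the other 18 libraries. Those 6 libraries are also the ones in which Hoxc11 was listed above 0.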
